A study of Mus musculus with 4 samples.

Results

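The genes described here form the machinery of DNA replication and S phase, read in lymphoid-primed multipotent progenitors (LMPPs) of mouse bone marrow with and without the transcription factor gene Lyl1. The set was defined by name as 54 genes, and every probe set whose annotated symbol was exactly one of those names was taken. Of the 54, 53 had such a probe set among 18193 genes on the array; Chaf1a, the large subunit of chromatin assembly factor 1, was not analysed here. The 53 genes had 132 probe sets, and each gene was read from the one with the highest mean over the 4 libraries.

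LMPPs were sorted as lineage-negative, c-Kit+ and Sca-1+ cells with high Flt3 from C57Bl/6 mice aged 6 to 8 weeks, and their amplified RNA was read on Affymetrix-style arrays of probe sets. There were 2 libraries from wildtype mice (WT) and 2 from mice labelled Lyl1-null, each on its own array, with no treatment or transgene named. The labels call the allele a knock-out and refer to an earlier publication for it; its construction, the sex of the mice and any pooling of animals are not stated in the labels. The labels also do not tie the libraries of one group to different animals. Each p-value therefore reflects the scatter among these 4 libraries alone, which may be technical. Precision is limited by their number: with 2 libraries against 2, an exact permutation test of a single value cannot go below p = 0.333.

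Chromosome replication begins with licensing, when Cdc6 and Cdt1 load the hexameric Mcm2 to Mcm7 helicase onto origins, and firing adds Cdc45 and the GINS complex to the helicase. Primase and the replicative polymerases then copy the strands with the sliding clamp PCNA, while ribonucleotide reductase and thymidylate synthase supply nucleotides and chaperones supply histones. Most of these genes are transcribed as cells pass from G1 into S phase, under E2F factors that are released from the retinoblastoma protein by the D-type and E-type cyclins. LMPPs are known as an actively cycling population, in contrast to the quiescent stem cells upstream of them.

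The targeted gene was read first. Lyl1 stood at 12.34 and 12.29 in the WT libraries, at 5.14 in the library labelled Lyl1-null 1 and at 10.32 in the library labelled Lyl1-null 2, on the log2 scale of the deposited values. The last value goes against its label, so both libraries are called by their labels and shown apart below. The library labelled Lyl1-null 2 also differed in sex-linked transcripts, with Xist at 14.26 against 5.81 to 6.30 in the other 3 and the Y-linked Eif2s3y at 8.44 against 10.07 to 10.15. Lyl1 and Eif2s3y were thus lower there than in WT but above the filter; whether the library mixes samples was not tested. Its values had a narrower spread over all probe sets (SD 2.34 against 2.44 to 2.48). Of the sorting and LMPP markers, Flt3, Kit, Cd34, Ptprc and Dntt were all above the expression filter (a log2 value of 5.69) in every library. Flt3, Kit and Cd34 were lower in the library labelled Lyl1-null 2 (differences of −0.76, −1.196 and −0.89 from WT; adjusted p = 0.0381, 0.0133 and 0.0243 in limma). The list of granulocyte and monocyte markers held 5 genes of 8 that were higher in both libraries labelled Lyl1-null than in either WT library and 1, Mpo, that was lower in both. Against WT, Ngp differed by 2.06 and 1.93 in the libraries labelled Lyl1-null 1 and 2, Camp by 2.002 and 1.67, S100a8 by 1.77 and 1.52, and Ltf by 1.76 and 1.18. Mpo differed by −0.65 and −1.36. Over all 11196 genes tested, 18.7% were higher in both libraries labelled Lyl1-null than in either WT library and 24% were lower in both. The summed linear level of the granulocyte and monocyte list, most of which is Mpo, was 4211 and 5526 in WT, then 4547 and 3213. Of 6 T and NK cell markers, 5 were higher in both, with 3 below the filter in every library. Cd8a differed by 0.16 and 0.73, and the summed level of the list was 256 to 265 in WT, then 300.2 and 361. Of 6 erythroid and megakaryocyte markers, 1, Itga2b, was higher in both (by 0.46 and 0.30) and 2, Car1 and Pf4, were lower in both. Car1 differed by −1.16 and −1.11 and Pf4 by −0.80 and −1.18. The summed level of that list was 965 to 1386 in WT, then 1014 and 978. Of 5 stromal markers, 2 were higher in both, Lepr by 0.086 and 0.66 and Cdh5, below the filter, by 0.27 and 0.36. Their list summed to 229 to 442 in WT, then 241 and 381. Of 5 B and plasma cell markers 1, Cd79a, was higher in both, by 0.11 and 0.61. The part of these differences in the results below was not tested.

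Replication and S-phase genes did not differ detectably between the groups. Of the 53 genes, all above the filter, 0 passed the test over all genes (limma with Benjamini-Hochberg adjustment at 0.05), against 0.00893% of the 11196 genes tested, and 0 had even an unadjusted p below 0.05, against 6.84% of all genes. The sign of the difference, Lyl1-null minus WT, was positive for 25 and negative for 28. The median difference was −0.025 against −0.047 over all genes tested, and single genes ran from −0.70 (Tyms) to 0.58 (E2f1). The groups did not overlap in 13 of the 53 (24.5%), 7 higher and 6 lower, against 42.7% of all genes tested (18.7% higher and 24% lower). Signs of small differences depend on scaling, and 5 of the 53 signs differed with quantile normalization and 5 with median centring.

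A p above the threshold does not show that levels were alike, so the 95% interval of each difference was read too. It lay within a 2-fold change in either direction for 43 of the 53 genes (81.1%, against 82.0% of all genes tested). The 10 whose interval reached 2-fold were Mcm6, Gins2, Rfc3, Rfc4, Tyms, Tk1, Chaf1b, E2f1, E2f8 and Ccnd3. In these, a change of that size in a pair of libraries per group was not excluded by the data. For the 43 genes, the interval holds for the probe set used. Among them, other probe sets above the filter differed by −1.32 for Mcm7, −0.99 for Ccnd2 and 0.94 for Mcm5. In bulk samples such as these, fewer cells in S phase and less RNA per cell cannot be told apart.

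**Figure D1:**
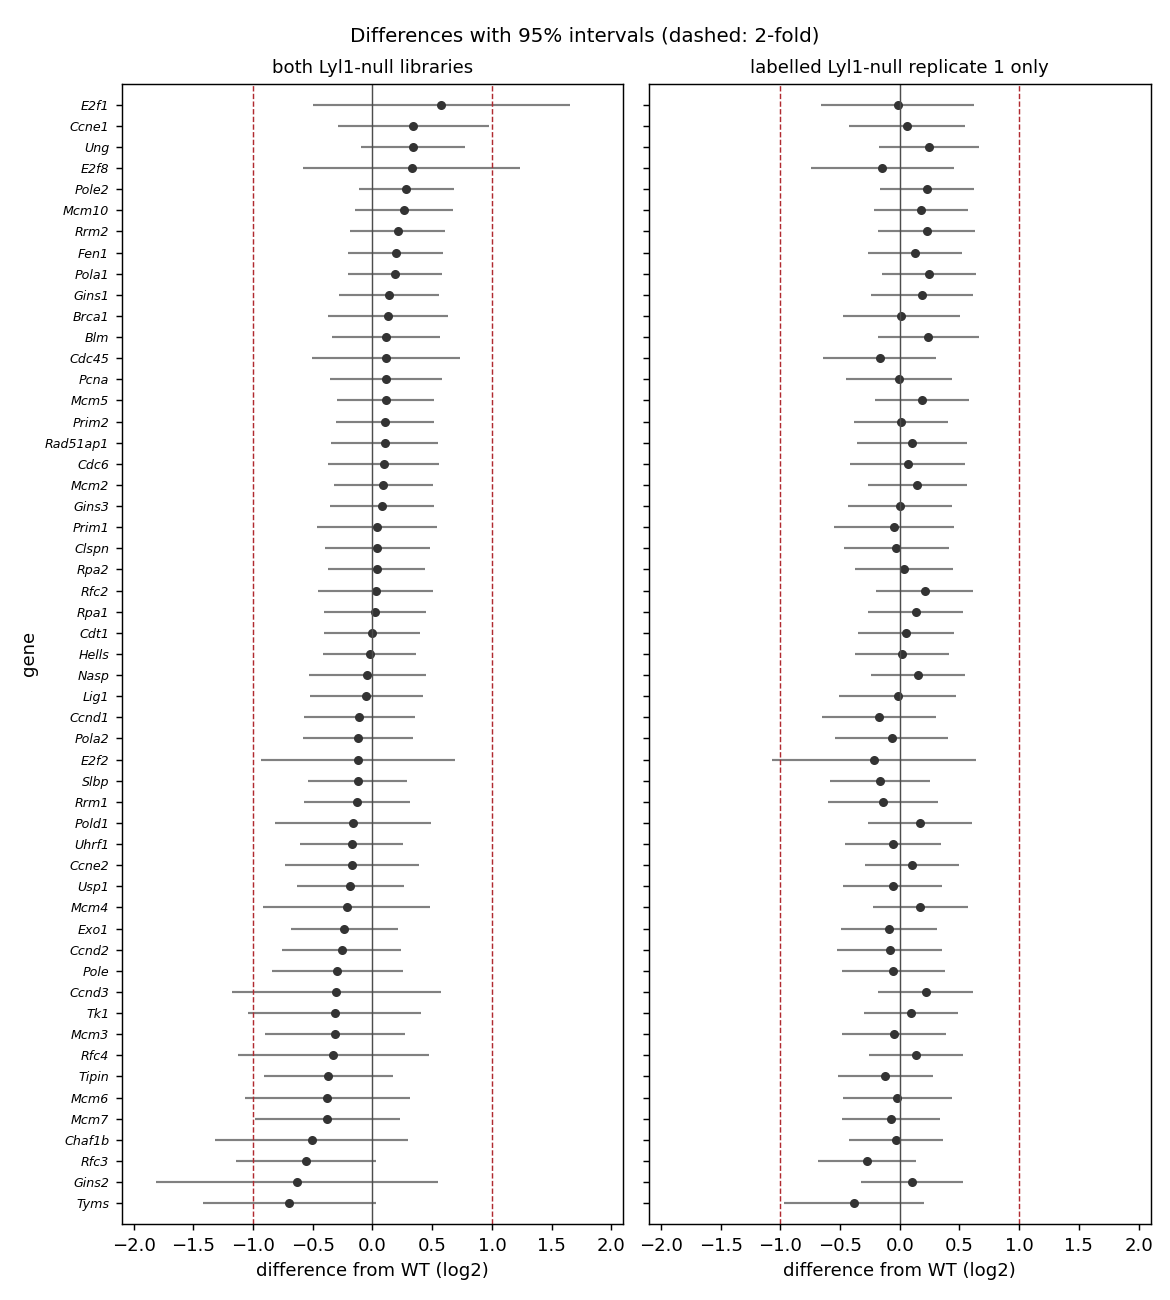
Difference from WT with its 95% interval for the 53 replication and S-phase genes, on the log2 scale (horizontal axis), for both libraries labelled Lyl1-null (left) and for the one labelled Lyl1-null 1 alone (right); dots are differences, lines are moderated limma intervals and dashed lines mark a 2-fold change. Intervals stay inside the dashed lines for 43 genes on the left and for 52 on the right.

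The 2 libraries labelled Lyl1-null did not behave alike against WT. Without the library labelled Lyl1-null 2, the one labelled Lyl1-null 1 lay close to WT: 0 of the 53 genes passed (0.196% of all genes tested did, 0.0893% higher and 0.107% lower), the median difference was 0.014, and the largest was −0.38, for Tyms. Its median absolute difference was 0.141 from WT 1 and 0.151 from WT 2, beside 0.180 between the 2 WT libraries, and the interval lay within 2-fold for 52 genes, E2f2 being the exception. All these values are for the probe sets used, and another Mcm5 probe set above the filter read 1.13 in that library. Without the library labelled Lyl1-null 1, the one labelled Lyl1-null 2 had 10 genes past the threshold, 9 lower and 1 higher. The 9 were Mcm6, Mcm7, Gins2, Rfc3, Rfc4, Tyms, Tk1, Chaf1b and Ccnd3, and the 1 was E2f1.

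That is 18.9% of the genes, against 14.8% of all genes tested in the same fit (10.8% lower and 3.94% higher), so the share lies near the background. The median difference there was −0.064, against −0.078 over all genes tested, and 3 of the 53 (5.66%) differed by at least 2-fold against 5.62% of all genes. Each of these fits leaves a single library in one group, which is assumed to vary like the WT pair. Without the filter on dim genes, 0 of the 10 passed and 0.0275% of all genes did. With each array centred on its median, 16 (30.2%) passed, among them all 10, and so did 25% of all genes.

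**Figure D2:**
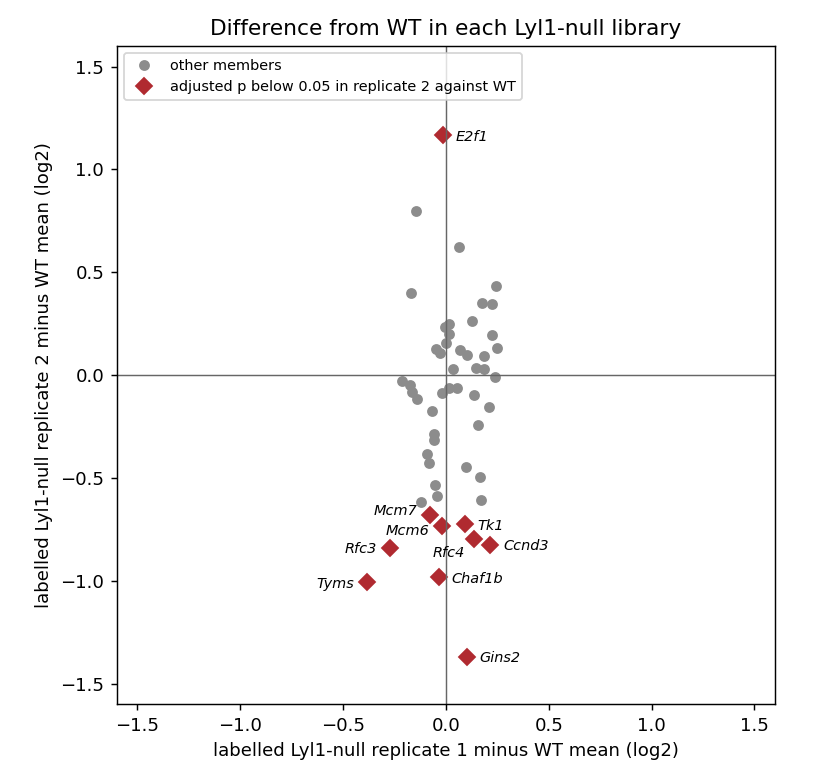
Difference from the WT mean (log2) in the library labelled Lyl1-null 1 (horizontal axis) and in the library labelled Lyl1-null 2 (vertical axis) for the 53 genes; both use the same WT libraries. Red diamonds mark the 10 genes with an adjusted p below 0.05 in the second library against WT, and the cloud is narrow horizontally, from −0.38 to 0.25, and wide vertically, from −1.37 to 1.17.

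**Figure D3:**
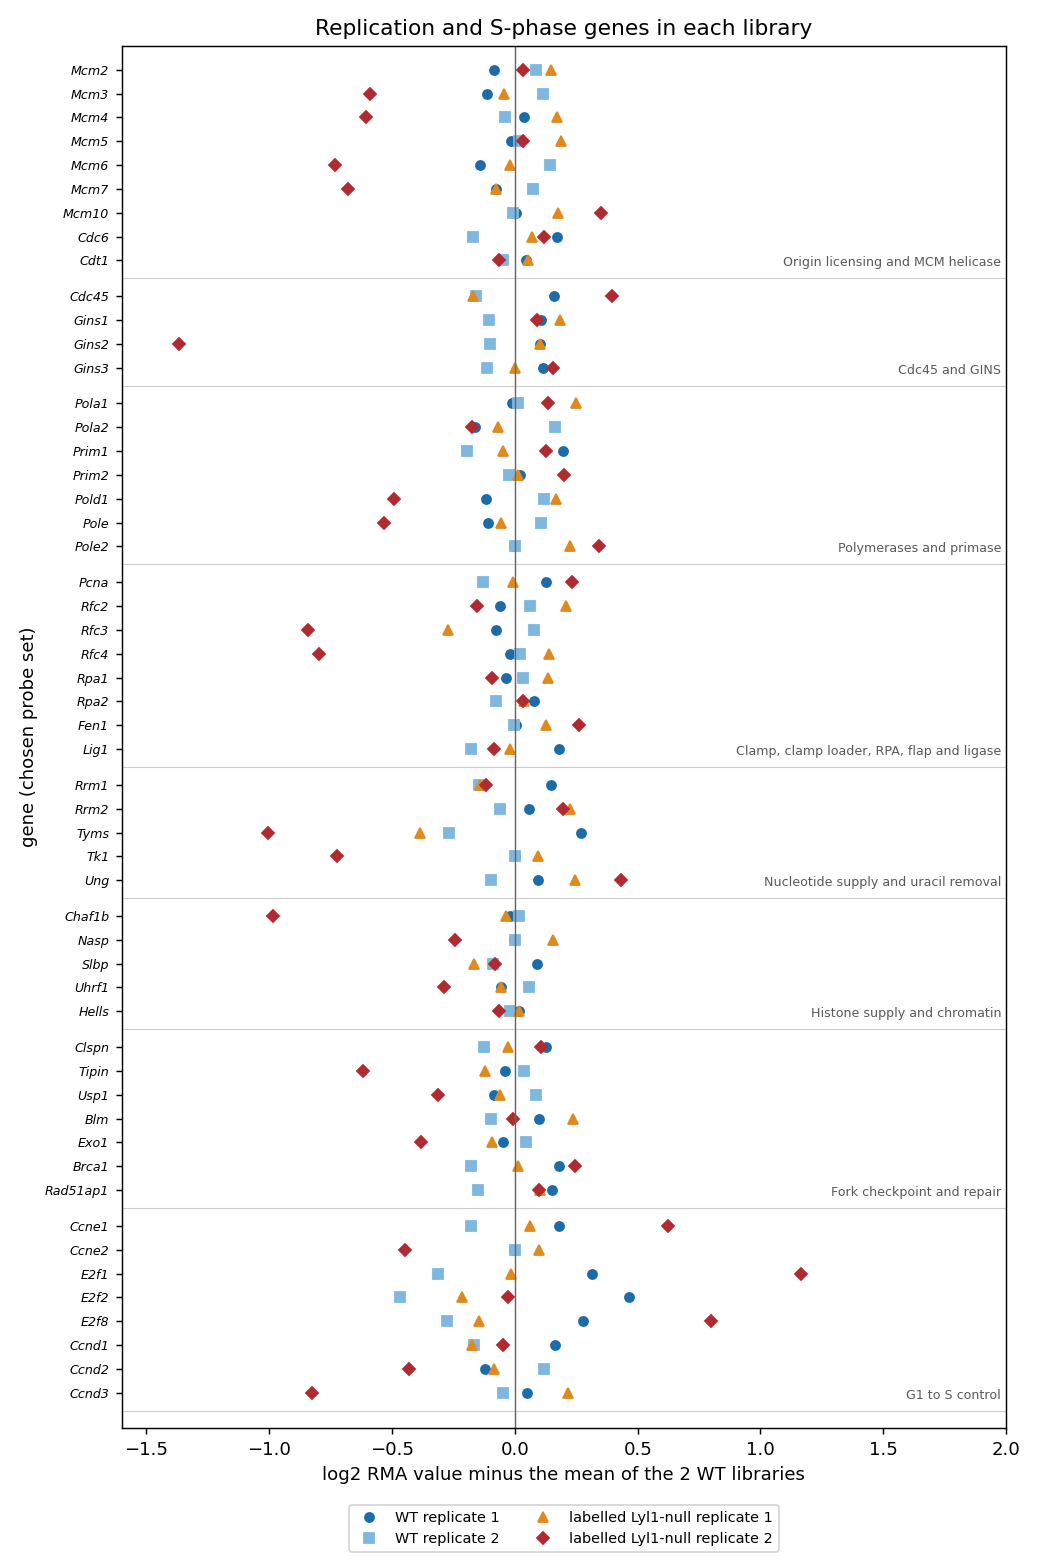
Log2 value of each of the 53 genes in each library, minus the mean of the WT libraries (horizontal axis), grouped by role; circles and squares are WT, triangles and diamonds the libraries labelled Lyl1-null 1 and 2. Triangles lie between the WT symbols for 24 genes, to their right for 20 and to their left for 9, while diamonds stand far apart to the left for genes such as Gins2, Chaf1b and Tyms and to the right for E2f1 and E2f8.

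Genes of origin licensing and the MCM helicase had a median difference of −0.005 over 9, with 4 positive and 5 negative. Within the hexamer, whose 6 subunits act as one ring, the probe sets used gave unlike values in the library labelled Lyl1-null 2. The contrast between subunits was not tested. Mcm6 read 11.24 and 11.53 in WT, 11.36 in the library labelled Lyl1-null 1 and 10.65 in the one labelled Lyl1-null 2, which is 60.1% of the WT mean (adjusted p = 0.0490 in limma). Mcm7 read 13.38 and 13.53 in WT, then 13.38 and 12.77, the last being 62.5% of the WT mean (adjusted p = 0.0459 in limma). For both genes, only the last library was set apart from the rest. Over both libraries labelled Lyl1-null the difference was −0.38 for each (SE 0.28 for Mcm6 and 0.24 for Mcm7; adjusted p = 0.661 and 0.647 in limma).

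Mcm3 and Mcm4 were at 66.5% and 65.7% of WT in that library without passing (adjusted p = 0.0718 and 0.0557 in limma). Mcm2 and Mcm5, the remaining subunits of the ring, were at 102% each there. A second Mcm2 probe set read −1.04 in that library, however, and the other Mcm3 probe sets above the filter ran from −0.77 to 0.35. Mcm10, a factor that joins the helicase at firing, read 8.34 and 8.32 in WT and 8.50 and 8.68 in the pair labelled Lyl1-null, higher in both without passing. In the probe sets used, the loaders Cdc6 and Cdt1 differed from WT by at most 0.12 in either library.

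E2F factors bind variants of the word TTTCCCGC, and promoters of 41 of the 53 genes were found in a table of mouse RefSeq promoters (build GRCm38.p6), each running from 250 bases before the transcription start to 50 after it. They were searched on both strands for 4 words of 8 bases, TTTCCCGC, TTTGGCGC, TTTCGCGC and TTTGCCGC, which can overlap each other on opposite strands. At least 1 word was found in 16 of the 41 (39.0%), against 2.605% of the 27025 genes in the table. The set was defined by name from genes mostly transcribed under E2F factors, so this share is no independent result. The promoters were not matched for base composition. The shorter CCAAT box, also on either strand, was found in 63.4% and 41.1%. Among the 16 genes with a word the median difference from WT was −0.064 in the library labelled Lyl1-null 2, and among the 25 without one it was 0.032. The contrast between these medians was not tested. In that library 3 of the 16 and 5 of the 25 were called lower, against 10.8% of all genes, and 1 of the 25, E2f1, was called higher, against 3.94%. A match describes these letters only and is not a bound site.

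The 120 bases just upstream of the start are shown for Mcm6 and the clamp loader gene Rfc3, both called lower in the library labelled Lyl1-null 2, and for the chromatin remodeller gene Hells, which was at 95.7% of WT there; the 3 were chosen after their values were seen. Mcm6 lies at chr1:128359706-128359825 (minus strand), Rfc3 at chr5:151651209-151651328 (minus strand) and Hells at chr19:38930870-38930989 (plus strand). Capitals mark the E2F words as they read on the gene's own strand, 5′ to 3′, and in Mcm6 2 of them overlap head to head.
Mcm6: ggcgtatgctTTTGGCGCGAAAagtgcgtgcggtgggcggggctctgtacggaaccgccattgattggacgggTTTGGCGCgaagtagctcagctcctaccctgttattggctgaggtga
Rfc3: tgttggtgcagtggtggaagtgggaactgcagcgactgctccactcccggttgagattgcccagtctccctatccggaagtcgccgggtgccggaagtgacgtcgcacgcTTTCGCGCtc
Hells: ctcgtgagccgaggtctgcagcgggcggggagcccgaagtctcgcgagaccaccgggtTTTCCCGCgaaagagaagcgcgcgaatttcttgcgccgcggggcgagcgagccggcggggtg
Words on the gene's own strand begin 110 and 47 bases before the start in Mcm6, 10 before it in Rfc3 and 62 before it in Hells. Because the 3 were picked by their values, they do not describe the 16 genes with a word. Over those 16, the difference from WT in the library labelled Lyl1-null 2 ran from −0.84 to 0.34.

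Cdc45 and the GINS complex complete the active helicase. Gins2, which encodes the GINS subunit also called Psf2, read 10.57 and 10.37 in WT, 10.57 in the library labelled Lyl1-null 1 and 9.10 in the one labelled Lyl1-null 2. It was the lowest of the 53 genes relative to WT in the last library, at 38.7% (difference −1.37, 95% interval −1.79 to −0.94, adjusted p = 0.0104 in limma), and was level with WT in the other. Over both libraries the difference was −0.63 (SE 0.47, adjusted p = 0.663 in limma). The partner subunits Gins1 and Gins3 were at 107% and 111% of WT in the library labelled Lyl1-null 2, though a second probe set of Gins3 read −0.46 there; the contrast between subunits was not tested. Cdc45, the helicase cofactor, was at 132% there, with a second probe set at −0.08, and at 88.9% in the library labelled Lyl1-null 1.

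Polymerases and primase had a median difference of 0.040 over 7 genes. In the fits with both libraries, with the one labelled Lyl1-null 1 and with the one labelled Lyl1-null 2, 0 of the 7 were called, against 0.00893%, 0.196% and 14.8% of all genes. Pole2, the second subunit of leading-strand polymerase epsilon, read 9.51 and 9.52 in WT and 9.74 and 9.86 in the pair labelled Lyl1-null (difference 0.28, SE 0.16, adjusted p = 0.644 in limma). Its catalytic partner Pole read 8.77 and 8.99 in WT, 8.83 in the library labelled Lyl1-null 1 and 8.35 in the one labelled Lyl1-null 2 (difference −0.29, SE 0.22, adjusted p = 0.663 in limma). The 2 subunits of the one enzyme thus had differences of opposite sign. Pola1, the catalytic subunit of the polymerase that extends primers, read 9.80 and 9.83 in WT and 10.06 and 9.95 in the pair labelled Lyl1-null, with groups that did not overlap (difference 0.19, SE 0.16, adjusted p = 0.681 in limma). Pola2, Prim1 and Prim2, the other subunits of that complex, differed by at most 0.20 from WT in either library in the probe sets used. In the library labelled Lyl1-null 2, other Pola2 probe sets above the filter read −0.94 and −0.35, and another of Prim1 read −0.25. Pold1 of the lagging-strand polymerase was at 71.0% of WT in that library.

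Clamp, clamp loader and strand-processing genes were mostly level in the probe sets used, with a median difference of 0.024 over 8. Rfc3, a subunit of the complex that opens PCNA onto DNA, read 8.26 and 8.41 in WT, 8.06 in the library labelled Lyl1-null 1 and 7.49 in the one labelled Lyl1-null 2. Its groups did not overlap, and the difference was −0.56 (SE 0.23, adjusted p = 0.644 in limma). Rfc4, another loader subunit, read 8.32 and 8.36 in WT, then 8.48 and 7.55, so that only the last library was low. In that library the 2 genes were at 55.8% and 57.6% of WT (adjusted p = 0.0286 and 0.0291 in limma), whereas Rfc2 was at 89.9% and did not pass. The clamp gene Pcna read 13.26 and 13.00 in WT and 13.12 and 13.36 in the pair labelled Lyl1-null, inside the WT range in one and above it in the other. Fen1, the flap nuclease, Lig1, the ligase of Okazaki fragments, and Rpa1 and Rpa2 of the single-strand binding complex differed by at most 0.26 from WT in either library in these probe sets. Other probe sets above the filter read −1.18 for Fen1, −1.07 for Rpa1 and −0.51 for Rpa2 in the library labelled Lyl1-null 2.

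Nucleotide supply genes had differences of both signs. Tyms, thymidylate synthase, read 7.79 and 7.25 in WT and 7.13 and 6.51 in the pair labelled Lyl1-null, lower in both (difference −0.70, SE 0.29, adjusted p = 0.644 in limma). Tk1, thymidine kinase of the salvage route, read 10.50 in both WT libraries, 10.59 in the library labelled Lyl1-null 1 and 9.78 in the one labelled Lyl1-null 2. In the last library the probe sets used for these 2 genes were at 49.8% (Tyms) and 60.5% (Tk1) of WT. The other Tyms probe set above the filter, with a mean of 7.12 beside 7.17, went the opposite way there, at 0.97. The ribonucleotide reductase subunits Rrm1 and Rrm2 were at 92.1% and 114% there, but 1 of the 3 Rrm2 probe sets above the filter read −0.87. Ung, which removes uracil from DNA, read 13.08 and 12.89 in WT and 13.23 and 13.41 in the pair labelled Lyl1-null, higher in both without passing (difference 0.34, SE 0.17, adjusted p = 0.644 in limma).

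Histone supply and chromatin genes had a negative difference in 5 of 5 measured, with a median of −0.12, and 0 passed; the smallest of these lie within the shift that quantile normalization gives all genes, so their sign is not settled. Chaf1b, a subunit of the complex that deposits new histones behind the fork, read 8.61 and 8.65 in WT, 8.59 in the library labelled Lyl1-null 1 and 7.64 in the one labelled Lyl1-null 2. It was at 50.6% of WT in the last (adjusted p = 0.0179 in limma) and within 0.035 of WT in the other, for a difference of −0.51 over both (SE 0.32, adjusted p = 0.646 in limma). Nasp, a histone chaperone, and Slbp, which binds histone mRNA, had differences of −0.044 and −0.12. Uhrf1, which reads hemimethylated DNA, had −0.17 and Hells −0.025.

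Fork checkpoint and repair genes had a median difference of 0.039 over 7, and 0 of the 7 were called in the same 3 fits, where at most 14.8% of all genes were. Tipin, a subunit of the complex that stabilises replication forks, read 9.18 and 9.26 in WT, 9.10 in the library labelled Lyl1-null 1 and 8.61 in the one labelled Lyl1-null 2 (difference −0.37, SE 0.22, adjusted p = 0.644 in limma). Exo1, a repair exonuclease, read 7.63 and 7.73 in WT, then 7.59 and 7.30 (difference −0.24, SE 0.18, adjusted p = 0.663 in limma). In both genes the libraries labelled Lyl1-null lay below WT, by far less in the first than in the second. Usp1, a deubiquitinase of PCNA, read 11.55 and 11.72 in WT, then 11.58 and 11.32, overlapping WT. Clspn, Blm, Brca1 and Rad51ap1 differed by at most 0.25 from WT in either library in the probe sets used.

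G1 to S control genes varied between the WT libraries too, by a median of 0.34, the widest of the role groups. E2f2, an activator of the S-phase programme, read 9.95 in WT 1 and 9.02 in WT 2, the widest gap between WT libraries among the 53 genes. E2f1, the founding activator, read 10.71 and 10.09 in WT, 10.38 in the library labelled Lyl1-null 1 and 11.56 in the one labelled Lyl1-null 2. The first of these lay inside the WT range; the last was at 224% of the WT mean (difference 1.17, 95% interval 0.52 to 1.81, adjusted p = 0.0370 in limma). E2f8, a repressor of the same targets that acts later in S phase, read 12.34 and 11.79 in WT, then 11.92 and 12.87, with the same order of libraries as E2f1 (adjusted p = 0.0739 for the last against WT in limma). Ccne1 and Ccne2, the E-type cyclins that drive S-phase entry with Cdk2, were at 154% and 73.4% of WT in the library labelled Lyl1-null 2, neither past the threshold (adjusted p = 0.0820 and 0.107 in limma). The other Ccne1 probe set above the filter read −0.74 there, opposite to the one used.

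Of the D-type cyclins, which start the G1 to S transition with Cdk4 and Cdk6, Ccnd3 read 9.17 and 9.07 in WT, 9.33 in the library labelled Lyl1-null 1 and 8.29 in the one labelled Lyl1-null 2. It was above WT in the first and at 56.4% of WT in the second (adjusted p = 0.0279 in limma), for a difference of −0.30 over both (SE 0.35, adjusted p = 0.750 in limma). Ccnd1 read 9.58 and 9.25 in WT and 9.24 and 9.37 in the pair labelled Lyl1-null, which overlapped it. Ccnd2 read 12.07 and 12.31 in WT, then 12.11 and 11.76 (difference −0.26, SE 0.20, adjusted p = 0.668 in limma). Cdkn1a, the p21 inhibitor of the same kinases, read 9.51 and 9.28 in WT and 10.96 and 11.80 in the pair labelled Lyl1-null (difference 1.98, SE 0.30, adjusted p = 0.297 in limma). It was higher by 1.56 in the library labelled Lyl1-null 1 and by 2.40 in the one labelled Lyl1-null 2, and passed against WT in each alone (adjusted p = 0.0456 and 0.00433 in limma).

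Probe sets of the same gene differed widely in the library labelled Lyl1-null 2. Of the 53 genes, 37 had 2 or more probe sets above the filter. Between probe sets of one gene, the difference from WT ranged over a median of 0.54 in that library, against 0.19 in the library labelled Lyl1-null 1 and 0.18 between the WT libraries. The range passed 1 for 9 of the 37 (24.3%) in that library and for 0 in the others; over all 4717 genes with as many probe sets it did so for 17.7%, 1.02% and 1.82%. All probe sets had 1 sign in that library for 23 of the 37. Probe sets whose names end in _x_at or _s_at can also bind other transcripts, and several of those used here are of this kind, among them that of Mcm7.

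The lower calls held to different degrees across probe sets. For Mcm6 the second probe set above the filter read −0.72 in the library labelled Lyl1-null 2 beside −0.73, for Rfc3 −0.97 beside −0.84 and for Rfc4 −0.56 beside −0.80. For Mcm7 all 4 were below WT, from −0.61 to −2.47, and for Gins2 both were, at −1.37 and −2.79. E2f1 was above WT in all 3, at 1.17, 0.68 and 0.28. Tyms went opposite ways, at −1.01 and 0.97, and Ccnd3 read −0.17 and −0.09 in its other probe sets, whereas Tk1 and Chaf1b had 1 above the filter each. A second Chaf1b probe set, with a mean of 5.6887 just below the filter of 5.6896, read 0.37 there, opposite to the one used. With the mean of probe sets, the Chaf1b difference over both libraries labelled Lyl1-null was −0.16.

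Genes that were level in the chosen probe set could be low or, as for Mcm5, high in another. Another Mcm5 probe set read 0.75 beside 0.03 in the library labelled Lyl1-null 2. In the library labelled Lyl1-null 2, the second Mcm2 probe set read −1.04 beside 0.03, that of Rpa1 −1.07 beside −0.09 and that of Fen1 −1.18 beside 0.26. Another Pola2 probe set read −0.94 beside −0.18 there, and another of Nasp −1.13 beside −0.24. Ccnd2, with 7 probe sets above the filter, was below WT in all of them, from −0.31 to −1.92. With the mean of probe sets, the median difference of the genes in that library was −0.20, against −0.080 over all genes tested, and 7 of 51 tested were called (13.7% against 12.3%). The direction and size given for a gene there thus hold for its probe set.

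**Figure D4:**
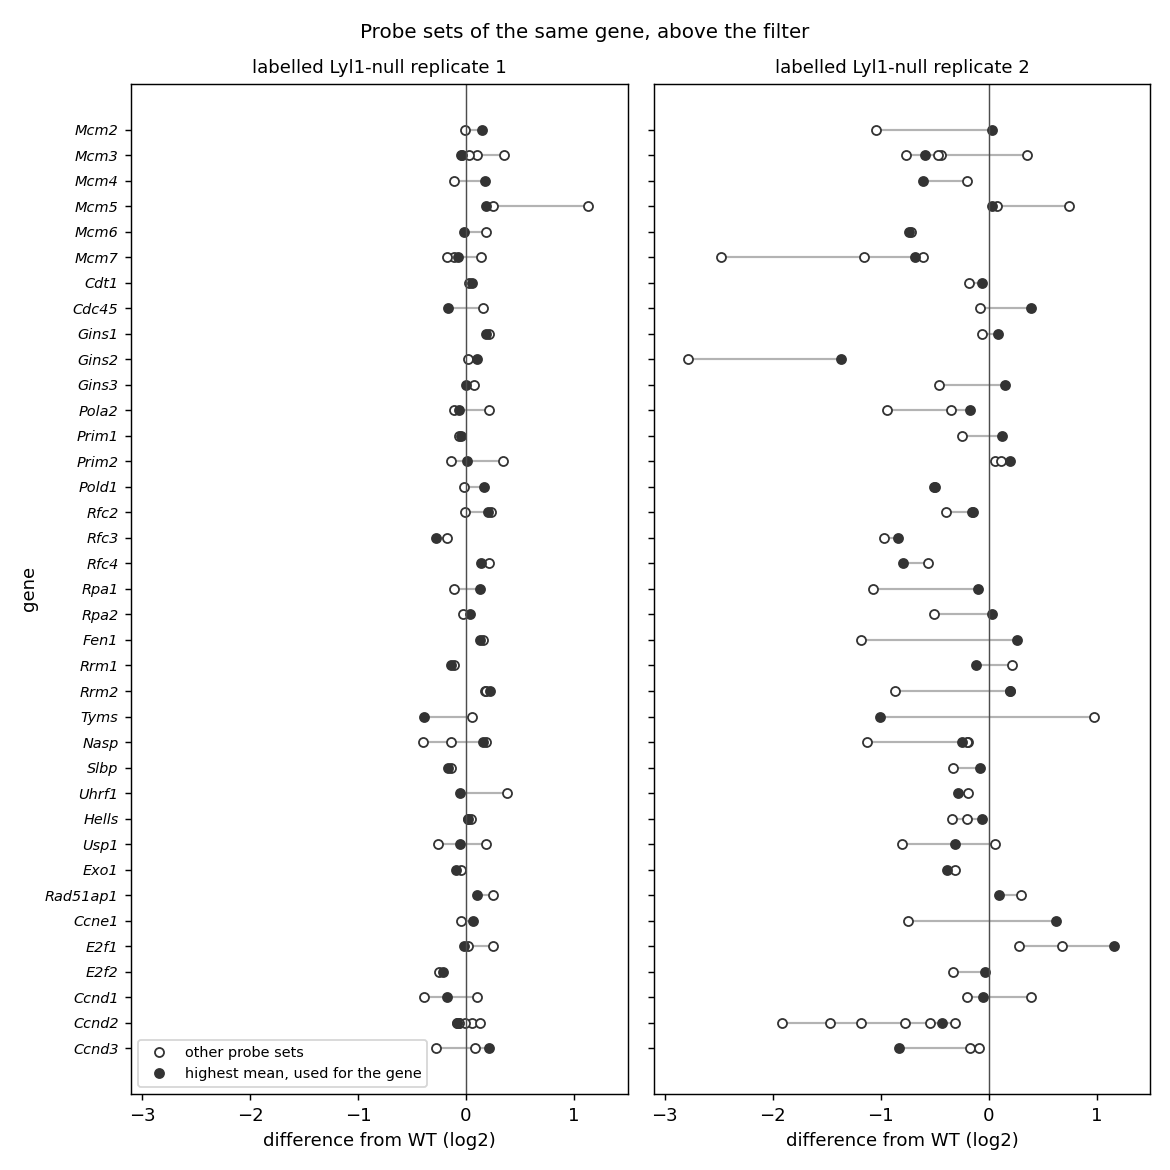
Difference from WT (log2, horizontal axis) of every probe set above the filter for the 37 genes with 2 or more, in the library labelled Lyl1-null 1 (left) and in the one labelled Lyl1-null 2 (right); filled circles are the probe sets used for the gene, open circles the others, and lines join probe sets of one gene. Most lines are short on the left (median range 0.19, with Mcm5 the widest) and longer on the right (median range 0.54), reaching −2.79 for Gins2 and −2.47 for Mcm7.

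Of 61 further replication genes listed, 59 were on the array and 58 were tested; 26 differences were positive and 32 negative, the median was −0.031 and 0 passed. The 5 with the smallest unadjusted p were Rbl2, a pocket protein of the retinoblastoma family (−0.49), the histone chaperone Asf1b (0.37), E2f5 (0.51), the checkpoint kinase Atr (−0.51) and Cdk2 (−0.37), each at an adjusted p of 0.644 in limma. In the library labelled Lyl1-null 2, 8 of the 58 (13.8%, against 14.8% of all genes) were called, 3 higher and 5 lower. Named after its value was seen, E2f7, the close relative of E2f8, was among the 3 and read 9.94 and 9.38 in WT, 9.77 in the library labelled Lyl1-null 1 and 11.13 in the one labelled Lyl1-null 2.

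Of 29 tested genes of G2 and M phase, 14 had a positive and 15 a negative difference, with a median of −0.002 that ran from −0.148 to 0.129 when each library was left out. In the 3 fits 0 of the 29 were called, against 14.8% of all genes in the library labelled Lyl1-null 2 and at most 0.196% in the others. Mki67, the proliferation antigen Ki-67, read 11.41 and 11.27 in WT and 11.12 and 10.92 in the pair labelled Lyl1-null (difference −0.32, SE 0.17, adjusted p = 0.644 in limma). The differences of Hmmr (0.44), the kinetochore gene Ndc80 (−0.29) and the kinesin gene Kif2c (0.71) did not pass either. Whether the replication genes differed from these lists was not tested.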

How the data were processed

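Expression was measured in 4 libraries, 2 per group. The authors deposited log2 values from RMA, per the submitters' processing notes; the RMA version was not given in the sources used. They were used as deposited. Of 45037 probe sets, 34945 had 1 symbol in the platform annotation, 932 several and 9160 none listed. Each gene took its probe set with the highest mean, and genes whose mean reached the median of probe-set means (5.69) were tested, 11196 in all. Lyl1-null was compared with WT in limma 3.58.1 (R 4.3.3; lmFit, eBayes, two-sided, Benjamini-Hochberg at 0.05), and again without each library labelled Lyl1-null; the test was first tested on simulated data. SEs and 95% intervals use the moderated variance.

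The members and all gene lists were chosen with earlier results of these data known. Values in every library are given, per role group, for members called in any of these 3 fits (at most 5, by the largest absolute difference), otherwise for the 3 with the smallest p; others are given to account for every member. Alternatives were the filter, probe-set rule, normalization, prior, array weights, threshold, replicate block and each library left out. No paired analysis was used for the main values, since the replicate numbers are not stated to pair libraries (correlation of deviations −0.41 across genes).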

Additional observations from a re-analysis of the deposited data

How the results depend on the processing

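No replication or S-phase gene passed under any of the 15 alternatives except without Lyl1-null replicate 1, so the count ran from 0 to 10 when each library was left out in turn. Over all genes the count ran from 1 to 1652 there, and was 4 without the filter, 0 with the mean of probe sets, 2 with quantile normalization, 2 with median centring, 4 with a trended prior, 5 with array weights and 6 at a threshold of 0.10. With the replicate number as a block 3 genes and 0 members passed, and with a crossed replicate block, added after the data were seen, 1 gene and 0 members passed. The members' median difference was 0.040 with quantile normalization and −0.0995 with median centring, where the median of all genes moved from −0.047 to 0.040 and −0.12. The other replication genes had medians of 0.070 and −0.106 there and of −0.077 to 0.030 with each library left out, and the G2 and M phase genes of 0.107 with quantile normalization. Among named genes, the difference ran over these left-out fits from −1.37 to 0.10 for Gins2, −0.80 to 0.14 for Rfc4, −0.73 to 0.094 for Tk1, −0.016 to 1.17 for E2f1 and −0.83 to 0.22 for Ccnd3, with the opposite sign each time without Lyl1-null replicate 2. In the library labelled Lyl1-null 2, 10 members were called; other settings, added after the data were seen, called 0 without the filter (0.0275% of all genes), 16 with median centring (25%), 16 at 0.10 (28.2%) and 7 to 13 otherwise (12.3% to 21%). Of the 10, 5 were among the 7 called with the mean of probe sets, 9 were called with the stricter filter and all 10 in the other settings except without the filter. The cause of these changes was not tested. Dim probe sets limit what low signals can show.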
